A study of Mus musculus with 16 samples.

Results

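Expression of 10 genes of the cell division programme was described across 4 genotypes of mouse hippocampus. They are the helicase subunits Mcm2, Mcm3, Mcm5 and Mcm6, the nucleotide enzyme Rrm2, the cyclins Ccna2 and Ccnb2, the kinase Cdk1, the topoisomerase Top2a and the chromosome surface protein Mki67. They were chosen by name as a sign of dividing glia and make up 10 of the 55385 genes in the count table. All 10 were among the 17132 genes that passed the filter on low counts and were tested. Polyadenylated RNA was sequenced from the hippocampus at 9 months of age, and each genotype was represented by 4 libraries (2 female, 2 male). The groups were wild type (WT, labelled as C57BL/6J), Dp16, 5xFAD and the double mutant 5xFAD-Dp16. Dp16 mice carry a duplicated segment of mouse chromosome 16, a model of Down syndrome, and none of the 10 genes lies on that chromosome. 5xFAD mice carry human transgenes with familial Alzheimer mutations under Thy1 promoter sequences, which drive them mainly in neurons, and 5xFAD-Dp16 mice carry both. The series' design text counts 4 mice per group, but the labels name no litters or batches, so p-values measure the spread between these libraries.

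Dividing cells first load a ring of Mcm proteins onto DNA as the future replicative helicase, then copy the DNA, then condense and separate the chromosomes. Most of these genes are transcribed in waves, with E2F factors acting on the replication genes and the DREAM and MuvB complexes acting on the mitotic genes through CHR elements and CCAAT boxes. In the adult hippocampus, dividing cells include precursors of the dentate gyrus, oligodendrocyte precursors and microglia, which multiply around amyloid plaques. In whole tissue, more dividing cells and more RNA per cell cannot be told apart.

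Promoter sequences are shown for Top2a and Mcm3, the members whose levels differed most firmly between genotypes, and for Cdk1 and Mcm6 as a mitotic and a replication gene for comparison. They come from RefSeq on GRCm38.p6 and end just before the transcript start. Capitals mark matches, on either strand, to the CHR hexamers TTTGAA or TTCGAA, to CCAAT, or to the E2F core TTNGCGC.
Top2a, chr11:99024190-99024439, minus strand: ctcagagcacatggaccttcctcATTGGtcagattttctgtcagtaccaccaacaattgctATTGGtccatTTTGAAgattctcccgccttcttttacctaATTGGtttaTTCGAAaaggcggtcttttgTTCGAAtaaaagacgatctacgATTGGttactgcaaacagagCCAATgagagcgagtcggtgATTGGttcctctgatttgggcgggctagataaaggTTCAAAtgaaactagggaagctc
Cdk1, chr10:69352939-69353162, minus strand: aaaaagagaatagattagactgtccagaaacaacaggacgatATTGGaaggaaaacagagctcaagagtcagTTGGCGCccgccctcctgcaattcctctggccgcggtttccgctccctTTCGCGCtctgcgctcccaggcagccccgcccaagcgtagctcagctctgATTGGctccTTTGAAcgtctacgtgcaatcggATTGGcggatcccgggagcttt
Mcm3, chr1:20820313-20820562, minus strand: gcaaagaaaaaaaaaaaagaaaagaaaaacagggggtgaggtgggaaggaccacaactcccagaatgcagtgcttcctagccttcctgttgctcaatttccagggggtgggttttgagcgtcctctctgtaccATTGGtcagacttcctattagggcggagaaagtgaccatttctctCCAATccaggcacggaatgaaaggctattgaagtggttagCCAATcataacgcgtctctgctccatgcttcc
Mcm6, chr1:128359706-128359955, minus strand: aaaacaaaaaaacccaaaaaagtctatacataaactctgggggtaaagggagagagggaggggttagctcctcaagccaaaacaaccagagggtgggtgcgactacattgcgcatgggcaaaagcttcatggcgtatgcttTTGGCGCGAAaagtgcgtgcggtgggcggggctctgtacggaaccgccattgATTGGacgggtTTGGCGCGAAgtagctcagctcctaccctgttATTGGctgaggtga

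The 250 bases before the RefSeq start were searched in the 9 members with an entry, and Ccna2 is only named here. Overlapping matches were counted separately. Top2a held 4 CHR hexamers and 6 CCAAT boxes and no E2F core. Cdk1 held 2, 3 and 2 of these, with 1 of its CHR hexamers downstream of the GENCODE start and so outside the 224 bases printed. Mki67 also held 2, 3 and 2, and Ccnb2 held 1, 3 and 0. Mcm6 held no CHR hexamer, 2 CCAAT boxes and 4 E2F cores, and Mcm5 held 0, 2 and 3. Mcm3 had 3 CCAAT boxes and neither of the other motifs, Mcm2 had 1 CHR hexamer and 1 CCAAT box, and Rrm2 had 1 CCAAT box alone. All 4 mitotic genes searched thus had at least 1 CHR hexamer, against 1 of the 5 replication genes. Among 32851 promoter windows of the same length in the table, 17.1% held a CHR hexamer, 33.8% a CCAAT box, 2.79% at least 3 CCAAT boxes and 5.19% an E2F core. A match describes letters in a window and shows no binding.

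**Figure D1:**
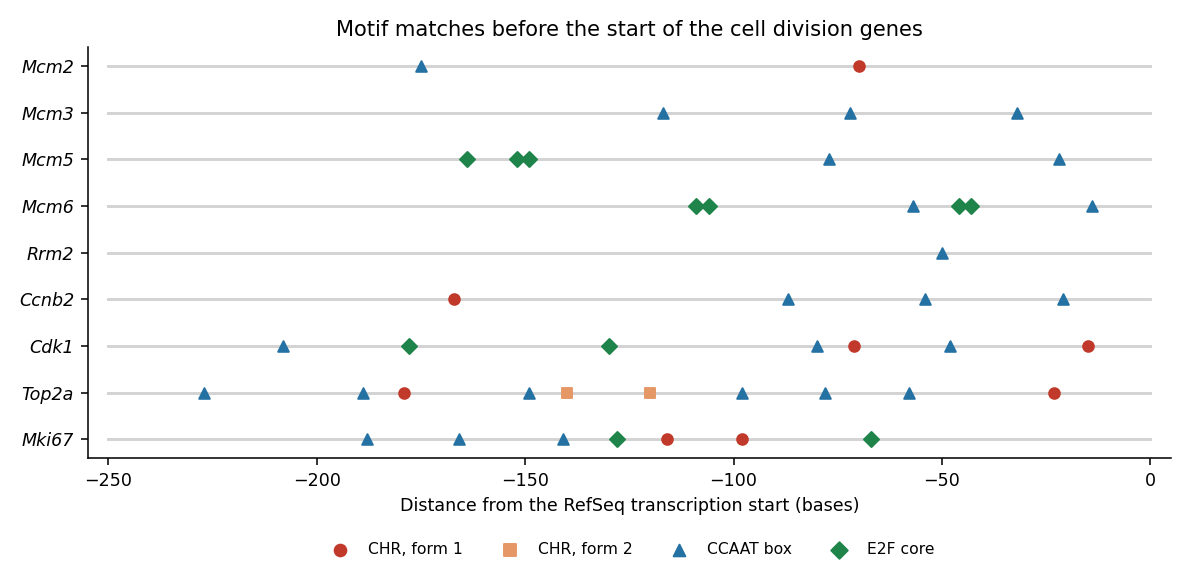
Positions of the 3 motifs in the promoter windows of the 9 members with a RefSeq entry, in bases upstream of the transcript start (horizontal axis), 1 line per gene; form 1 of the CHR hexamer is TTTGAA and form 2 is TTCGAA. CHR hexamers lie in Top2a, Cdk1, Mki67, Ccnb2 and Mcm2, and Top2a holds 6 CCAAT boxes.

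All 10 genes were low in this tissue, and the mitotic genes were the lowest. On the per-length RPKM scale, the mean over the 16 libraries was 3.07 for Mcm6, 1.81 for Mcm2, 1.53 for Mcm3, 1.46 for Mcm5 and 0.525 for Rrm2. It was 0.225 for Ccnb2, 0.197 for Ccna2, 0.191 for Top2a, 0.115 for Mki67 and 0.0884 for Cdk1. Over all libraries the range of each gene overlapped that of the next in this order, most narrowly for Mcm6 (from 2.293) and Mcm2 (to 2.295). Of all genes tested, 41.1% had a mean RPKM below that of Mcm6 and 0.747% had one below that of Cdk1. Totals over the 16 libraries ran from 124 counts for Ccnb2 to 4801 for Mcm6, in libraries of 16922937 to 25308693 counts. Counting error alone gives a coefficient of variation between libraries of 24.8% to 55.5% for Cdk1, depending on the group, and of 5.35% to 6.07% for Mcm6. The filter asked for a level of about 0.436 CPM (read counts scaled to a common library size) in 4 libraries. Cdk1 met that in 6 libraries with the 5xFAD transgenes and 1 without, and Ccnb2 in 3 and 1, so these genes passed mainly through carriers. The other members met it in at least 4 libraries of either kind.

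**Figure D2:**
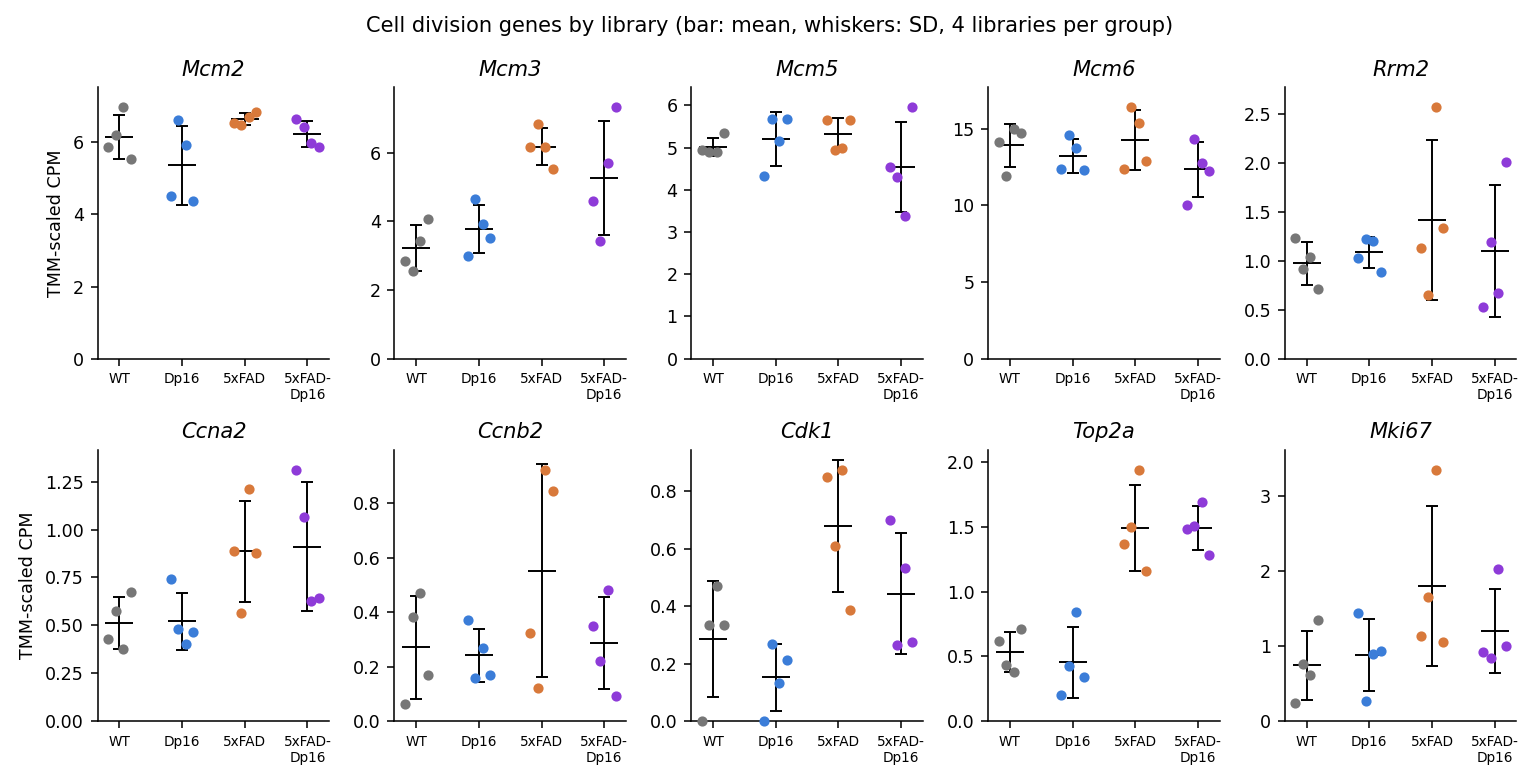
Level of each member in every library, in TMM-scaled CPM (vertical axes, each from 0), by genotype. Points are libraries (4 per genotype), horizontal bars are group means and whiskers are SDs. Top2a shows all 8 libraries with 5xFAD transgenes (1.16 to 1.94) above all 8 without (0.205 to 0.846), while Mcm2, Mcm5 and Mcm6 overlap between all groups.

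The effect of the 5xFAD transgenes was read in 3 ways with edgeR's quasi-likelihood test: 5xFAD against WT, 5xFAD-Dp16 against Dp16, and the average of both, here called the amyloid average. The third is built from the same libraries as the others and is not separate evidence. A gene was called at an adjusted p (Benjamini-Hochberg, over all 17132 genes) below 0.05. In the amyloid average, 2 of the 10 members were called, Top2a and Mcm3, both higher, where 6.61% of all genes were called higher and 8.60% either way. At an unadjusted p below 0.05 there were 5 members, beside 25.2% of all genes. In 5xFAD against WT the same 2 were called, with 5.31% of all genes called higher and 7.26% either way, and 3 members passed unadjusted, beside 24.9%. In 5xFAD-Dp16 against Dp16, Top2a alone was called, with 2.99% of all genes called higher and 3.02% either way, and 4 members passed unadjusted, beside 11.2%. Fold changes were positive for 8, 10 and 8 of the 10 members in these 3 comparisons, with medians of 0.65, 0.85 and 0.34 (log2), beside medians of 0.01, 0.03 and -0.01 over all genes tested. The positive ones include Cdk1 and Ccnb2, which passed the filter mainly through carriers.

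Mcm2, Mcm3, Mcm5 and Mcm6 are subunits of the helicase ring, and 1 of the 4, Mcm3 (ENSMUSG00000041859.10, GRCm38 chr1:20802968-20820312), was called. WT libraries (replicates 2, 4, 7, 16) gave 46, 53, 73 and 97 reads of Mcm3, and Dp16 libraries (replicates 3, 5, 12, 14) gave 73, 87, 88 and 83. Counts reached 153, 169, 127 and 157 reads with 5xFAD alone (replicates 6, 10, 13, 15), and stood at 105, 77, 118 and 160 reads in the double mutants (replicates 1, 8, 9, 11). After scaling, every 5xFAD library lay above every WT library, while the 5xFAD-Dp16 libraries spread from 3.42 to 7.32 CPM and overlapped Dp16 (3.00 to 4.65). Group means were 3.22 ± 0.679 CPM in WT, 3.77 ± 0.697 in Dp16, 6.17 ± 0.542 with 5xFAD alone and 5.26 ± 1.66 in the double mutants (SD, n = 4 each). Mcm3 rose 1.90-fold in 5xFAD against WT (log2 0.93 ± 0.21 SE, adjusted p = 0.0156). In 5xFAD-Dp16 against Dp16 the change was 0.48 ± 0.21 and missed the threshold (adjusted p = 0.399). The difference between these 2 changes was -0.45 ± 0.30 and was not called (adjusted p = 0.747). The amyloid average was a 1.63-fold rise (0.70 ± 0.15, adjusted p = 0.00643). The call in 5xFAD against WT was lost without WT replicate 2 (0.84, adjusted p = 0.0680).

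None of the other subunits of the ring was called in the amyloid average. Mcm6 counts were 229 to 351 in WT, 273 to 309 in Dp16, 307 to 405 with 5xFAD alone and 230 to 323 in the double mutants, and its amyloid average was -0.03 ± 0.09 (log2 ± SE, adjusted p = 0.852). Mcm2 had 95 to 148, 103 to 133, 138 to 195 and 124 to 152 counts, with an amyloid average of 0.17 ± 0.09 (adjusted p = 0.268). Mcm5 had 80 to 127, 105 to 134, 103 to 161 and 70 to 130 counts, with -0.06 ± 0.11 (adjusted p = 0.788). The groups overlapped for all 3 genes. Mcm4 and Mcm7, the remaining subunits and no members, had amyloid averages of -0.02 ± 0.07 and 0.19 ± 0.09 (adjusted p = 0.876 and 0.194). As a description, log2 CPM of Mcm3 minus the mean log2 CPM of the other 5 subunits was -1.43 ± 0.27 in WT, -1.11 ± 0.18 in Dp16, -0.57 ± 0.16 with 5xFAD alone and -0.69 ± 0.44 in the double mutants (SD, n = 4 each). No test was made of it. This difference carries no length scaling, so its size says nothing of the ratio of the subunits.

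Rrm2 encodes the regulated subunit of ribonucleotide reductase, which makes the deoxynucleotides for DNA synthesis. Its counts were 20, 19, 22 and 17 in WT, 25, 23, 27 and 21 in Dp16, 28, 16, 53 and 38 with 5xFAD alone and 12, 27, 14 and 44 in the double mutants, in the replicate order given for Mcm3. WT and Dp16 libraries lay close together, whereas libraries with the transgenes ranged both below and above them. The coefficient of variation was 57.6% in 5xFAD and 61.0% in 5xFAD-Dp16, where counting error gives 17.2% and 20.3%, and 22.4% in WT and 14.7% in Dp16, where it gives 22.6% and 20.4%. Whether the spread itself differed was not tested. The amyloid average was 0.26 ± 0.28 (log2 ± SE, adjusted p = 0.606).

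Cyclin A2 (Ccna2) acts in S phase and at mitotic entry, cyclin B2 (Ccnb2) in mitosis, and Cdk1 is the kinase they activate. None of the 3 passed the threshold. Ccna2 counts were 7, 12, 8 and 16 in WT, 18, 9, 9 and 11 in Dp16, 22, 14, 25 and 25 with 5xFAD alone and 30, 24, 13 and 14 in the double mutants. Carriers of the transgenes were mostly but not always higher (0.886 ± 0.264 and 0.911 ± 0.335 CPM against 0.514 ± 0.135 and 0.522 ± 0.149 CPM, SD, n = 4 each), and the groups overlapped. The amyloid average was 0.78 ± 0.26 (adjusted p = 0.0715) and passed only when 5xFAD replicate 10 was left out (0.89, adjusted p = 0.0275). In that fit 3327 of 17440 genes were called, against 1473 of 17132 in all libraries. Replicate 10 was the only 5xFAD library of low thalamus marker score. Exons of Ccna2 overlap those of Exosc9 on the other strand. The strand setting of the counting was not stated, so reads of the 2 genes cannot be told apart here.

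Cdk1 counts were 0, 7, 10 and 8 in WT, 0, 5, 3 and 5 in Dp16, 21, 15, 18 and 11 with 5xFAD alone and 16, 6, 11 and 6 in the double mutants. All 5xFAD libraries had more counts than any WT library, but after scaling the lowest 5xFAD library (0.387 CPM) lay below the highest WT library (0.471 CPM). A count of 0 allows up to 0.185 CPM in WT replicate 2 and 0.123 CPM in Dp16 replicate 3, for counting error only. The amyloid average was 1.33 ± 0.48 (log2 ± SE, adjusted p = 0.0963). It was called by DESeq2 (1.35, adjusted p = 0.0425), which called 2367 of 17132 genes where edgeR called 1473. It was also called without the filter on low counts (adjusted p = 0.0190), beside 2793 of 32180 genes. Cdk1 passed that filter mainly through carriers, so the DESeq2 call is no separate support. Ccnb2 was the sparsest member, with 1 to 10 counts in WT, 3 to 9 in Dp16, 3 to 24 with 5xFAD alone and 2 to 10 in the double mutants. Its highest values were the 19 and 24 counts of 5xFAD replicates 13 and 15, and its amyloid average was 0.60 ± 0.48 (adjusted p = 0.472). An annotated pseudogene, Ccnb2-ps on chromosome 8, may share reads with it.

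Top2a (ENSMUSG00000020914.17, GRCm38 chr11:98992943-99024189) encodes topoisomerase II alpha, which untangles sister chromatids before they separate, and had the clearest difference of the 10. Its counts were 10, 9, 8 and 17 in WT, 5, 8, 19 and 8 in Dp16, 34, 37, 40 and 33 with 5xFAD alone and 34, 34, 35 and 28 in the double mutants. Every library with the transgenes lay above every library without them. Top2a was the only member so separated, and 2.67% of all genes were. Between 5xFAD and WT, Top2a and Mcm3 did not overlap, as did not 7.62% of all genes in that direction, and between 5xFAD-Dp16 and Dp16 only Top2a, as did not 6.56%. Mean levels were 0.535 ± 0.158 CPM in WT, 0.454 ± 0.276 in Dp16, 1.49 ± 0.330 with 5xFAD alone and 1.49 ± 0.167 in the double mutants (SD, n = 4 each). Top2a rose 2.73-fold in 5xFAD against WT (log2 1.45 ± 0.36 SE, adjusted p = 0.0222). It rose 3.35-fold in 5xFAD-Dp16 against Dp16 (1.74 ± 0.36, adjusted p = 0.0100) and 3.02-fold in the amyloid average (1.60 ± 0.25, adjusted p = 0.000495). Spread within the groups was close to counting error except in Dp16, where the coefficient of variation was 60.8% against 31.6%. The call in 5xFAD against WT was lost without WT replicate 2 (1.47, adjusted p = 0.0664), 4 (1.39, adjusted p = 0.0568) or 7 (1.26, adjusted p = 0.0801), and calls over all genes fell from 1244 to 562, 932 and 712 in the same fits. The other Top2a calls held when any 1 library was left out. A small nucleolar RNA model, Gm23451, overlaps an exon of Top2a on the same strand.

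Mki67 encodes Ki-67, the coat protein of mitotic chromosomes used as the standard marker of cycling cells. Its counts were 4, 16, 13 and 32 in WT, 35, 5, 20 and 22 in Dp16, 28, 41, 69 and 30 with 5xFAD alone and 21, 19, 42 and 22 in the double mutants. The groups overlapped, and libraries within each group differed by far more than counting error (coefficients of variation from 46.4% to 61.5%, against 15.4% to 24.8%). Mean levels were 0.743 ± 0.457, 0.882 ± 0.479, 1.80 ± 1.07 and 1.20 ± 0.556 CPM in the same group order (SD, n = 4 each). The amyloid average was 0.90 ± 0.36 (log2 ± SE, adjusted p = 0.135), the change in 5xFAD against WT 1.35 ± 0.52 (adjusted p = 0.122) and that in 5xFAD-Dp16 against Dp16 0.45 ± 0.51 (adjusted p = 0.823). Both of the first values passed without the filter on low counts (adjusted p = 0.0103 and 0.00609), beside 2793 and 2692 of 32180 genes. That fit also called 290 genes in the interaction, where edgeR with the filter called 0. 5xFAD replicate 13, a library of high thalamus marker score, had the highest CPM of all 16 libraries for Top2a, Mki67, Rrm2, Cdk1 and Ccnb2. The summed level of the 5 mitotic members (Ccna2, Ccnb2, Cdk1, Top2a and Mki67) was 1.36 to 3.24 CPM in WT, 1.60 to 2.75 in Dp16, 4.32 to 8.30 with 5xFAD alone and 3.30 to 5.36 in the double mutants. This sum includes Top2a, itself called, and Cdk1 and Ccnb2, which passed the filter mainly through carriers. It was not tested and is no separate support.

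**Figure D3:**
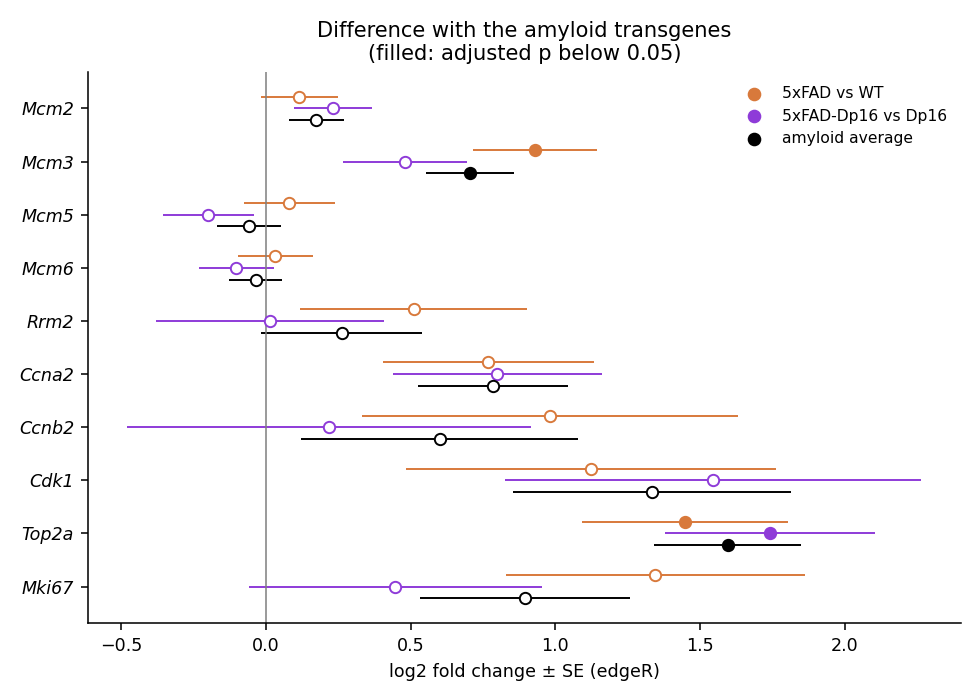
Log2 fold change of each member (points, horizontal axis) with its standard error (bars) in 5xFAD against WT, in 5xFAD-Dp16 against Dp16 and in the amyloid average, from edgeR; filled points are called at an adjusted p below 0.05. Top2a is called in all 3 comparisons and Mcm3 in 2, while Mcm5 and Mcm6 have amyloid averages of -0.06 and -0.03.

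Some libraries had higher levels of marker genes of the neighbouring thalamus than others. The thalamus marker score (mean log2 CPM of 10 markers, centred) was above 0.5 in 6 libraries, namely WT 4, Dp16 14, 5xFAD 6, 13 and 15, and 5xFAD-Dp16 1, and below 0 in the other 10. In those 10 alone, 1 library was left in 5xFAD and is assumed to vary like the other groups. Top2a then had an amyloid average of 1.54 (log2) and Mcm3 of 0.88, close to the sizes in all 16 libraries. No member was called in that fit. With 1 library left in 5xFAD, its calls are not compared with those of all 16 libraries. For Ccna2 the amyloid average was then 0.09 and for Ccnb2 -0.79, against 0.78 and 0.60 in all libraries. The part of thalamic tissue in the cyclin values was not tested.

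The Dp16 duplication gave no call among the 10 genes. In Dp16 against WT, 0 members were called (0 at an unadjusted p below 0.05 and 0 by DESeq2), where edgeR called 0.228% of all genes, or 5.70% unadjusted. Values ran from -1.004 ± 0.75 for Cdk1 to 0.24 ± 0.52 for Mki67 (log2 ± SE). In 5xFAD-Dp16 against 5xFAD, 0 were called (0 unadjusted, 0 by DESeq2), beside 0.304% of all genes, or 19.1% unadjusted (52 genes by edgeR and 640 by DESeq2), with values from -0.94 ± 0.64 for Ccnb2 to 0.05 ± 0.35 for Ccna2. Of the 10 values, 8 were negative, and Top2a was at 0.02 ± 0.33. The interaction, the difference of the 5xFAD effect with and without the duplication, called 0 members and 0% of all genes (0 members unadjusted, beside 6.50% of all genes, and 0 by DESeq2), from -0.90 ± 0.72 for Mki67 to 0.42 ± 0.94 for Cdk1. These standard errors leave a change of either sign possible for the sparse genes. Females and males did not differ by the test for any member (0.0642% of all genes were called), and the smallest p was that of Rrm2 (log2 0.54 higher in females, unadjusted p = 0.0709, adjusted p = 0.865).

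The wider cell cycle machinery was read from 5 lists of 97 genes, the members included: licensing and helicase, DNA synthesis, cyclins and their kinases, G1 cyclins, and mitosis. In the amyloid average 86 were tested, and 4 rose, namely Top2a, Mcm3, Cdk6 and Cdk4, which is 4.65% beside 6.61% of all genes, with none lower. Cdk6 (0.49 ± 0.12, adjusted p = 0.0131) and Cdk4 (0.25 ± 0.07, adjusted p = 0.0472) are the kinases that act with D-type cyclins at the start of the cycle. Without the 10 members, 76 genes were tested and 2 rose (2.63%). Values were positive for 57 of the 76, beside a share of 52.6% of all genes, with a median of 0.20 beside 0.01 (log2). No test of these shares was made. Genes that pass the filter mainly through carriers, as Cdk1 and Ccnb2 did, favour positive values. How many list genes passed in that way was not counted.

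By role, the 33 tested genes of licensing and DNA synthesis had a median amyloid average of 0.15, with Mcm3 called. Chaf1b, a chromatin assembly factor, and Lig1, a DNA ligase, had the smallest p of the synthesis list at 0.74 ± 0.29 and 0.33 ± 0.15 (adjusted p = 0.124 and 0.172). The 48 tested cyclin, kinase and mitosis genes had a median of 0.31, with Top2a called. Cdk2, the partner of cyclins E and A, just missed the threshold (0.66 ± 0.20, adjusted p = 0.0546). In 5xFAD against WT, 6 of the 86 rose, or 6.98% beside 5.31%: Top2a, Mcm3, Cdk4, the primase subunit Prim1 (0.78 ± 0.19, adjusted p = 0.0198), the anaphase activator Cdc20 (1.40 ± 0.39, adjusted p = 0.0408) and Cdca3 (1.37 ± 0.37, adjusted p = 0.0364). In 5xFAD-Dp16 against Dp16 these last 3 genes were at -0.43 ± 0.19, 0.26 ± 0.39 and -0.08 ± 0.38 (adjusted p = 0.394, 0.872 and 0.969). Their interactions were -1.21 ± 0.27 for Prim1, -1.14 ± 0.56 for Cdc20 and -1.45 ± 0.53 for Cdca3. Prim1 and Cdca3 passed there unadjusted, beside 6.50% of all genes. None of the 3 was called by edgeR (adjusted p = 0.718 for each). They were named for their rise in 5xFAD against WT, which enters the interaction with a negative sign. That choice favours negative values. In 5xFAD-Dp16 against Dp16, 2 of the 86 rose, Top2a and Cdk6, or 2.33% beside 2.99%. Of 6 tested inhibitors of cyclin-dependent kinases, Cdkn2c rose in the amyloid average (0.54 ± 0.15, adjusted p = 0.0303). Ccnb1, the main partner of Cdk1, was too low to test, with summed counts over 4 libraries of 10 in WT, 5 in Dp16, 40 with 5xFAD alone and 30 in the double mutants. Other list genes too low to test varied. In the same group order, Ttk had 16, 12, 34 and 32 counts, Cdc25c 10, 31, 23 and 28, Ndc80 12, 14, 15 and 7, and Orc1 3, 5, 3 and 3. These counts are not scaled to library size.

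Markers of microglia were higher with the transgenes, and those of other glia gave fewer calls. In the amyloid average all 10 microglia markers rose, with a median of 1.12 (log2), and their summed level was 327 to 409 CPM in WT, 324 to 410 in Dp16, 657 to 1211 with 5xFAD alone and 737 to 839 in the double mutants. Csf1r, the receptor on which microglia depend, rose 1.93-fold (0.95 ± 0.08, adjusted p = 5.60e-07). Of 9 genes of microglial growth signalling 8 rose, among them Csf1, a Csf1r ligand (0.74 ± 0.07), and the transcription factors Spi1 (1.39 ± 0.11) and Runx1 (1.69 ± 0.15). Il34, the other ligand, was at -0.09 ± 0.09. Of 10 astrocyte markers 4 rose, Gfap (1.90 ± 0.10), Aqp4 (0.66 ± 0.13), Aldoc (0.30 ± 0.08) and Aldh1l1 (0.19 ± 0.06), and the summed level was 6485 to 8640 CPM in WT, 6692 to 7525 in Dp16, 6954 to 10158 with 5xFAD alone and 8826 to 9799 in the double mutants.

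Of the 10 markers of oligodendrocyte precursors, C1ql1 alone was called in 5xFAD against WT (0.52 ± 0.15, adjusted p = 0.0439). None was called in the amyloid average by edgeR, although all 10 values were positive (median 0.21), with Pdgfra, their defining receptor, at 0.08 ± 0.08. Their summed level was 693 to 835 CPM in WT, 666 to 808 in Dp16, 807 to 959 with 5xFAD alone and 781 to 906 in the double mutants. None of 11 tested markers of neural stem cells and newborn neurons was called (median 0.04, Dcx 0.06 ± 0.11), and none of 10 endothelial markers (median 0.11). Of 12 lymphocyte and neutrophil markers 5 were tested and 2 rose, the T cell receptor component Cd3e (3.04 ± 0.50) and the immunoglobulin chain Ighm (0.71 ± 0.16), with summed levels of 13.1 to 18.9 CPM in WT, 15.2 to 34.2 in Dp16, 22.8 to 44.3 with 5xFAD alone and 21.1 to 47.1 in the double mutants. None of 6 tested markers of monocytes and border macrophages was called. Markers of excitatory neurons and of choroid plexus varied between libraries as well. Of 10 excitatory neuron markers all had a negative amyloid average (median -0.28), with the receptor subunit Grin1 lower (-0.29 ± 0.08, adjusted p = 0.0381), and in 5xFAD against WT Grin1, Gria2 and Grin2a were called lower (median -0.49). Their summed level was 9595 to 13269 CPM in WT, 9528 to 14303 in Dp16, 5951 to 12730 with 5xFAD alone and 9809 to 13070 in the double mutants. In every group the libraries of high thalamus score were lower (5951 to 9936 CPM) than those of low score (11504 to 14303 CPM). Most 5xFAD libraries were of high score, and replicate 10, of low score, was at 12730 CPM. The part of thalamic tissue in these neuron values was not tested. Summed choroid plexus markers ran from 457 to 8190 CPM in WT, 47.9 to 964 in Dp16, 58.7 to 6182 with 5xFAD alone and 72.0 to 3015 in the double mutants, with none of 10 called in the amyloid average. The part of each cell type in the levels of Top2a and Mcm3 was not tested.

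**Figure D4:**
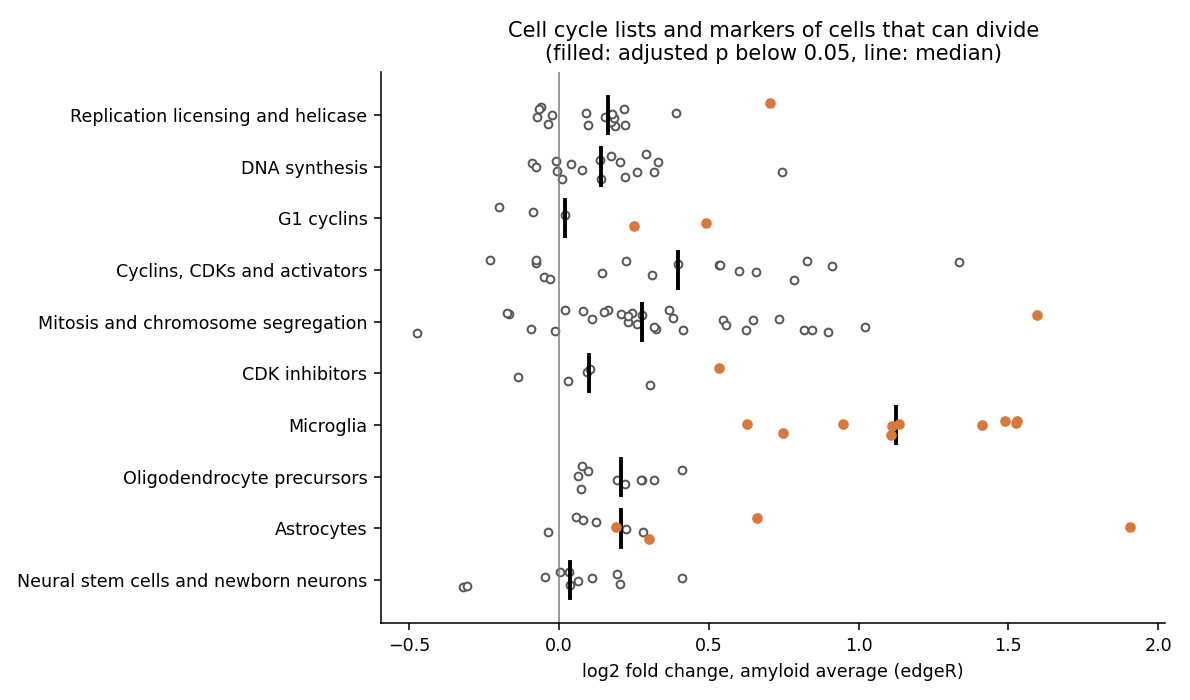
Log2 fold changes in the amyloid average (horizontal axis) of the tested genes of the cell cycle lists and of 4 cell type lists, 1 row per list; points are genes, filled where called by edgeR at an adjusted p below 0.05, and the vertical black line is the list median. All 10 microglia markers are called higher, whereas 1 gene of the licensing list (Mcm3) and 1 of the mitosis list (Top2a) are.

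The relation to the microglia score was computed for Top2a and Mcm3 alone, within each side of the transgene contrast. Across the 8 libraries with the transgenes, the microglia score and log2 CPM of Top2a had a Pearson r of 0.274 (exact permutation p = 0.509) and a Spearman rho of 0.238 (p = 0.582), and r was 0.383 without the 2 libraries farthest from the median score. Across the 8 without, r was 0.680 (exact permutation p = 0.0822), rho 0.643 (p = 0.0962) and r without the 2 farthest 0.830. For Mcm3 r was 0.427 with the transgenes (exact permutation p = 0.274, rho 0.524, p = 0.197, r without the 2 farthest 0.574) and 0.556 without them (p = 0.156, rho 0.429, p = 0.299, r without the 2 farthest 0.490). After adjustment over the 4 relations no Pearson p was below 0.313 and no Spearman p below 0.385.

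As a description over all 16 libraries, which share the genotype contrast, the genes whose log2 CPM was most like that of Mcm3 were Lyl1 (Pearson r = 0.900), Rasal3 (0.897) and B430306N03Rik (0.895). The closest were Ttc25 (0.841) for Mcm2, Atp5l2-ps (0.801) for Mcm5, Dmrta2 (0.844) for Mcm6, Ap5z1 (0.799) for Rrm2 and Mlph (0.818) for Mki67. Top2a, Cdk1, Ccna2 and Ccnb2 were too low for this ranking. Among the members ranked, the highest likeness of any but Mcm3 thus lay below that of the 3 genes named for Mcm3.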

How the data were processed

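Per the labels' protocols, TRIzol extraction was followed by library preparation with a stranded poly-A kit (Tecan/Nugen Universal Plus mRNA). The submitters' processing notes name HISAT2 2.1.0, HTSeq 0.6.1, SAMtools 1.5 and the build GRCm38; their roles, how strand was set and how multi-mapped reads were treated were not given in the sources used here. The authors deposited raw read counts per gene, which were used for every test. The RPKM values deposited by the authors, checked to equal the count divided by column total and gene length, were used for levels between genes and for the limma alternatives. Total counts were 16922937 to 25308693 per library.

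Counts were normalized by TMM (trimmed mean of M values) and fitted with edgeR 4.0.16 in R 4.3.3 (quasi-likelihood, robust) on all 16 libraries, with group and sex as terms, after filterByExpr with a minimum count of 10. Alternatives were RLE scaling, DESeq2 1.42.0, no filter on low counts, no sex term, limma 3.58.1 on log2(RPKM + 0.1) and log2(RPKM + 1), and leaving out each library. The fit without the 6 libraries of high thalamus score was added after seeing the data, as were the results for sex. All 10 members are described; of each list, the called genes or the 2 of smallest p are named, and for members with a mean log2 CPM of at least 0 the 3 most correlated genes were found. Members and lists were chosen with earlier results of these data known. Permutation tests were two-sided, with scipy 1.17.1. The fit was tested on simulated counts.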

Additional observations from a re-analysis of the deposited data

Results flagged for a closer look

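Within groups of 4 libraries, 2 of 40 member and group combinations had 1 library far from the other 3, with a gap to the nearest library above Dixon's critical value as a share of the group's range, and chance flags about 1 group in 20. Mcm5 was at 5.34 CPM in WT replicate 16, the highest of WT, with a gap of 0.917 of the range, although the whole group spread by less than counting error. Mki67 was at 2.03 CPM in 5xFAD-Dp16 replicate 9, the highest of that group, with a gap of 0.862 of the range.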

How the results depend on the processing

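Of the 10 members, the number called in the amyloid average was 4 without the filter on low counts (Top2a, Mcm3, Cdk1 and Mki67) and 3 by DESeq2, against 2. In the 10 libraries of low thalamus score no member was called in the amyloid average, 5xFAD against WT or 5xFAD-Dp16 against Dp16. That fit had 1 library left in 5xFAD and 3 in each other group, so its calls are not compared with those of all 16 libraries. Leaving out 1 library at a time gave 0 to 2 calls in 5xFAD against WT, and no filter gave 3. The number of genes tested differed too: 17132 with the filter on all 16 libraries, 32180 without the filter and 17440 without 5xFAD replicate 10. The numbers called over all genes are therefore not on one scale. In the amyloid average 1473 were called, against 2367 by DESeq2, 2793 without the filter and 3327 without 5xFAD replicate 10. In 5xFAD against WT 1244 were called, against 2124, 2692 and 3486 in the same order, and 562 without WT replicate 2. In 5xFAD-Dp16 against Dp16 it was 518, against 890 without the filter. In 5xFAD-Dp16 against 5xFAD it was 52, against 640 by DESeq2, 1656 without the filter and 2045 without 5xFAD replicate 10. Without the filter, 360 genes were called in Dp16 against WT, against 39 (73 by DESeq2), and 290 in the interaction, against 0.

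Signs turned only for changes that were not called. In the libraries of low thalamus score the amyloid average (log2) was 0.04 for Mcm5, 0.066 for Mcm6 and -0.79 for Ccnb2, 5xFAD against WT gave -0.13 for Rrm2, -0.18 for Ccna2 and -1.35 for Ccnb2, and 5xFAD-Dp16 against Dp16 gave -0.23 for Ccnb2. On log2(RPKM + 0.1) and log2(RPKM + 1), the amyloid average of Mcm6 was 0.01 and 0.01, and Rrm2 in 5xFAD-Dp16 against Dp16 was -0.087 and -0.003. Leaving out 1 library, Mcm6 ran from -0.074 to 0.015 in the amyloid average and from -0.048 to 0.098 in 5xFAD against WT. In 5xFAD-Dp16 against Dp16, Rrm2 ran from -0.338 to 0.303 and Ccnb2 from -0.145 to 0.513. The cause was not tested.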
